A study of Homo sapiens with 12 samples.

Results

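The response of 501Mel cells to vemurafenib (Vem) was followed across all expressed genes. 501Mel, an established line of human melanoma cells, carries an activating BRAF mutation, and Vem is an inhibitor of the mutant BRAF kinase. The comparison took 4 of the 12 libraries of the series by their labels: 2 from cells given 1 µM Vem for 48 h, and 2 from cells given the vehicle DMSO for the same 48 h. Only the drug differed between these groups by label, and both came from the same line, so the results describe 1 cell line at 1 dose and 1 time. The other 8 libraries came from cells given 5 µM resveratrol (RSV), RSV with 1 µM Vem, 10 nM TCDD, or RSV with TCDD, for 48 h, with 2 libraries each. They entered the fit so that all 6 groups shared 1 estimate of the spread, and the RSV and RSV+Vem libraries served as a further pair of groups that differ by Vem. Nothing states whether the 2 libraries of a group came from separate cultures, so p-values measure the spread between these libraries, which may be technical.

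BRAF passes growth signals through MEK to the kinase ERK, which raises transcription factors of the ETS, AP-1 and EGR families, MYC, cyclin D1, and the phosphatases and adaptors that inhibit ERK itself. Cyclin D1 with its kinases inactivates the retinoblastoma protein and so frees E2F factors, which transcribe the DNA replication genes, and the factors MYBL2 and FOXM1 act later on mitotic genes. In melanocytic cells the factor MITF, a relative of the lysosomal regulators TFEB and TFE3, drives pigment genes and the mitochondrial coactivator PPARGC1A.

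Gene counts summed to 19841435 and 25076925 in the vehicle libraries and to 15944197 and 14632070 with Vem. Of 56638 listed gene symbols, 16080 passed the filter on low counts and were tested. The 10 most abundant genes took 6.5% and 7.2% of the counts with vehicle and 13.3% and 12.3% with Vem, and mitochondrially encoded genes took 5.09%, 6.16%, 10.7% and 8.99% in the same order. RNA integrity numbers were 9.4 and 9.6 with vehicle and 9.2 and 9.7 with Vem. Melanocytic markers summed to 14560 and 13900 CPM with vehicle and 32660 and 34830 CPM with Vem, with all 7 of them above 3 counts. PMEL (7860 and 7862, then 21050 and 22340 CPM) and DCT carried most of that difference, and S100B went the other way, from 29.8 and 35.5 to 10.2 and 8.30 CPM. Sums were at most 26.0 CPM in any of the 4 libraries for the marker lists of fibroblasts, keratinocytes, leukocytes and endothelial cells. CPM is the read count of a gene scaled to library depth with TMM factors, which set the bulk of genes level between libraries. Pairs of CPM values are given throughout as vehicle 1 and 2, then Vem 1 and 2. Bulk counts cannot tell fewer cells of a kind from less RNA per cell.

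The 2 vehicle libraries stood apart from each other in some genes. Their counts differed by 23.4 chi-square units per degree of freedom, against 6.72 for the 2 Vem libraries, and 491 genes differed by more than 1 log2 unit between them. Known targets of the hypoxia factor HIF were higher in vehicle 1, by a median of 1.09 log2 units over the list, and mitochondrially encoded genes were lower there. Many results that rest on this library, but not all, are given with and without it.

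Between Vem and vehicle, the quasi-likelihood test of edgeR, adjusted by the Benjamini-Hochberg method, called 8423 of 16080 genes at an adjusted p below 0.05, which is 52.4% of those tested. Of these, 4082 (25.4%) were higher with Vem and 4341 (27.0%) lower. At least 2-fold changes were found for 1259 called genes that were higher (7.83% of those tested) and 1699 that were lower (10.6%), and at least 4-fold changes for 262 and 504. The middle 50% of genes lay between -0.55 and 0.45 log2 units, and 90% between -1.76 and 1.33. Scaling by the ERCC spike-in RNA that the libraries also held moved the median of all genes by -0.65 log2 units, and then called 196 genes higher and 3574 lower. Each change below is therefore relative to the median gene, and a gene called higher by less than 0.65 would lie below its vehicle level on the spike-in scale. Of the 92 tested genes named below and called higher, 32 were also called higher with spike-in scaling and 11 lay below 0, whereas all 112 called lower were also called lower there. Control sequences took 0.0316% and 0.0310% of counts with vehicle and 0.0442% and 0.0447% with Vem. They took 0.03885% and 0.0903% in the 2 RSV+Vem libraries and 0.0630% and 0.0936% with RSV and TCDD. The 12 libraries share 1 estimate of the spread, so these differences between replicates enter every spike-in test. A gene not called with spike-in scaling is therefore not shown to be unchanged. The study's methods do not say how much spike-in RNA was added or at which step, so this scale cannot be read as RNA per cell.

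The immediate output of ERK held some of the deepest falls. ETV4, an ETS factor (chr17:41605212-41656988, minus strand; GRCh37, as for the other gene positions below), fell from 115 and 112 to 1.11 and 0.922 CPM, which is 110.5-fold lower (log2 fold change -6.79, SE 0.172). DUSP6, the phosphatase that removes the activating phosphates from ERK (chr12:89741012-89746278, minus strand), fell from 111 and 98.5 to 1.81 and 0.692 CPM. In both genes the groups were far apart against the spread within them. Of 13 tested feedback inhibitors of ERK signalling, 0 were higher and 11 lower, with a median log2 fold change of -3.17 (-0.03 over all tested genes). That median was -2.19 without vehicle 1 and -3.42 without vehicle 2, with 11 lower in both. At levels this low after Vem the size rests on few counts, and without Vem 1 the log2 fold change was -7.23 for DUSP6. SPRY4, a Sprouty adaptor, fell from 55.6 and 62.8 to 1.67 and 0.615 CPM (-6.57 log2 units without Vem 1), SPRY2 fell 16.9-fold and DUSP4 9.84-fold. Of 21 ETS, AP-1, EGR and MYC factors, 14 were lower and 0 higher. MYC, which drives growth genes, fell from 103 and 96.7 to 15.7 and 16.4 CPM, and EGR1 changed by -3.64 log2 units (-2.51 without vehicle 1 and -4.26 without vehicle 2).

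Among other deep falls, SHISA2, an endoplasmic reticulum protein that holds back Wnt and FGF receptors (chr13:26618735-26626154, minus strand), fell from 31.8 and 42.8 to 0.835 and 1.08 CPM. CTLA4 and ICOS, neighbouring genes better known for receptors that tune T cell activation, were both lower: CTLA4 fell from 27.3 and 33.9 to 1.18 and 1.46 CPM, and ICOS, whose Vem libraries were at or under 3 counts, was at least 18.4-fold lower by that floor. C1QTNF3, a secreted C1q-related protein, fell from 58.1 and 58.3 to 1.32 and 2.08 CPM. SPRR2D, a cornified envelope protein, had 0 counts in both Vem libraries and was at least 10.9-fold lower. EGR3 (112 and 26 counts with vehicle and 2 and 0 with Vem) and MYEOV (73 and 74 counts with vehicle and 1 and 3 with Vem) were at least 14.2-fold and 15.1-fold lower by the same floor of 3 counts per library, and the EGR3 bound rests mainly on vehicle 1.

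Among called genes whose groups did not overlap and whose mean in the higher group was at least 50 counts, the 20 largest rises were all in genes with low vehicle levels, at most 15.6 CPM in either library. KCNJ13, an inward rectifier potassium channel known from the retinal pigment epithelium (chr2:233630512-233641275, minus strand), rose from 0.456 and 0.607 to 18.4 and 19.5 CPM (log2 fold change 5.12, SE 0.254, edgeR quasi-likelihood test with Benjamini-Hochberg adjusted p = 2.45e-10). PTGDS, the synthase of prostaglandin D (chr9:139869544-139876194, plus strand), rose from 0.658 and 0.647 to 19.2 and 19.8 CPM. Both Vem libraries lay far above both vehicle libraries in each of these genes. SLC5A10, a sugar cotransporter (chr17:18853658-18925908, plus strand), rose from 1.97 and 1.78 to 30.1 and 29.3 CPM, and SLC7A4, of the cationic amino acid transporter family, rose from 3.75 and 4.49 to 48.8 and 53.8 CPM. CYP19A1, the aromatase that makes estrogens, rose from 3.54 and 2.43 to 36.4 and 52.7 CPM. MVP, the main protein of the vault particle (chr16:29831715-29859360, plus strand), rose from 7.996 and 7.32 to 67.1 and 75.5 CPM (log2 fold change 3.22, SE 0.131). SERPINI1, the serpin neuroserpin, rose from 11.5 and 9.99 to 89.3 and 90.6 CPM. MYH7B, a myosin heavy chain, rose 13.1-fold and IL17D, a cytokine, 7.56-fold.

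**Figure D1:**
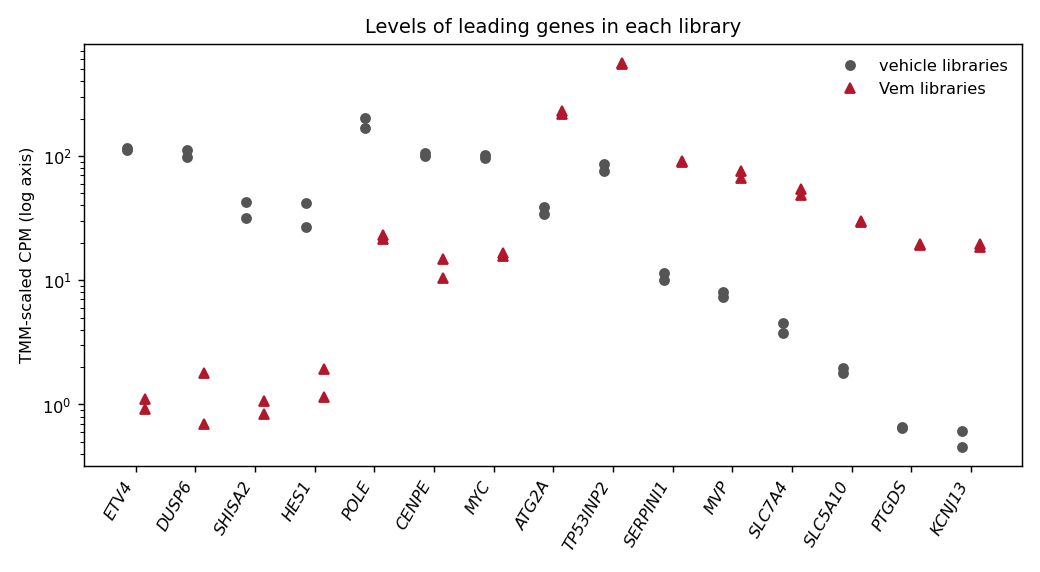
TMM-scaled CPM on a log axis for 15 genes that fell or rose with Vem, with 1 grey circle for each vehicle library and 1 red triangle for each Vem library. ETV4 and DUSP6 dropped from about 100 CPM to about 1 CPM, KCNJ13 and PTGDS rose from under 1 CPM to over 18 CPM, and no gene shown had overlapping groups.

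Lists of genes with a shared function were then read against the background of 25.4% called higher and 27.0% called lower. The 64 lists held 2524 entries, some genes in more than 1 list, of which 2265 passed the filter on low counts, and medians cover these alone. The members divided by function. Cell division, DNA synthesis, ribosome making, splicing and nuclear transport lists held mostly members called lower, whereas the respiratory chain, the TCA cycle, fatty acid oxidation, lysosome, autophagy and pigment lists held mostly members called higher relative to the median gene. With spike-in scaling, at most 7 members of any of the 77 lists and families were called higher, and in 47 of them 0 were. The number lower was over 1.5 times smaller in 13 of them. Lists near the background had counts that rest on all 4 libraries: leaving out 1 library moved a count of 8 or more by over 1.5 times in 18 of the 77 lists and families.

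**Figure D2:**
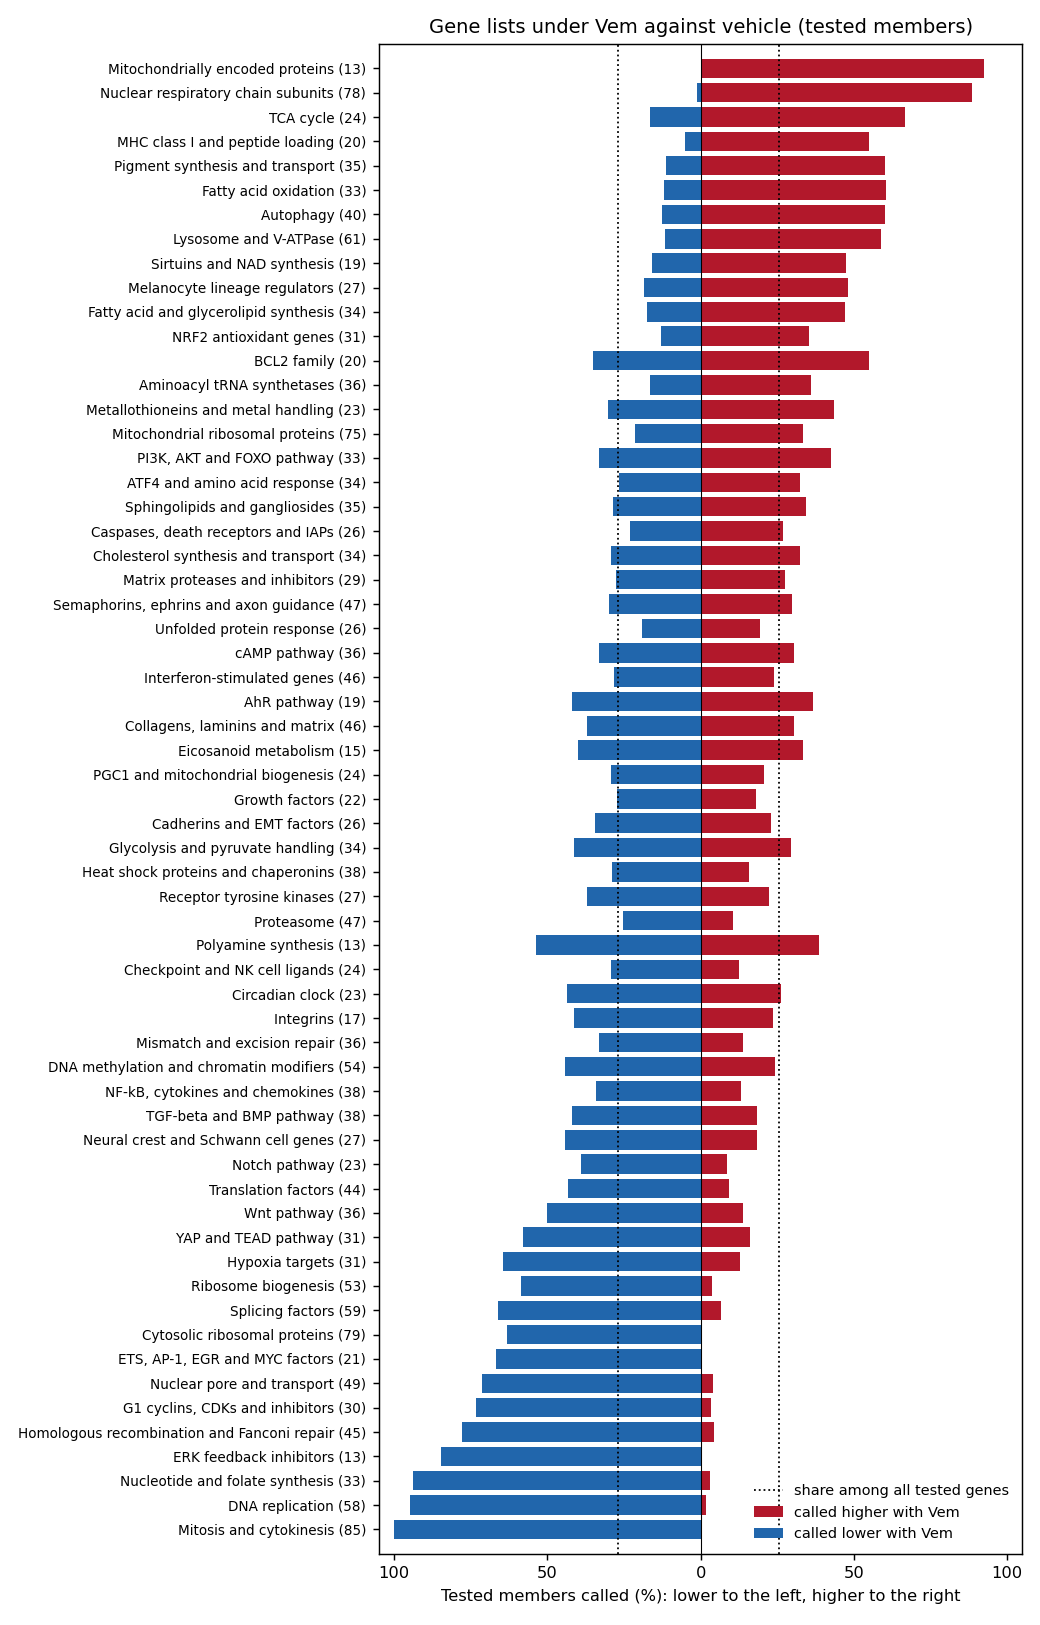
For the gene lists shown (each with at least 13 tested members), the share of members called higher (red, to the right) and lower (blue, to the left) with Vem, in percent, with the number tested in brackets and dotted lines at the shares among all tested genes (25.4% and 27.0%). The mitosis list had 85 of 85 members lower, and the nuclear respiratory chain list 69 of 78 higher (0 with spike-in scaling).

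Genes of cell division were lower as a block. All 85 tested genes of mitosis and cytokinesis were called lower, 79 of them at least 2-fold (median -1.81). CENPE, the kinesin that carries chromosomes to the spindle equator (chr4:104026506-104119602, minus strand), fell from 106 and 99.9 to 10.4 and 14.8 CPM (log2 fold change -3.04, SE 0.189). HMMR, a spindle protein, fell from 108 and 111 to 14.4 and 20.5 CPM, and KIF20B and KIF14, kinesins of cytokinesis, fell 6.39-fold and 6.15-fold. The Vem libraries lay under both vehicle libraries in each of them. Cyclin B1 (CCNB1) fell from 143 and 162 to 46.1 and 44.1 CPM, the kinase PLK1 fell 2.94-fold, and the proliferation antigen MKI67 fell 2.90-fold. FOXM1, the factor that acts on many of these genes, fell from 101 and 110.3 to 53.2 and 49.3 CPM, a smaller change than the median of the list.

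Of the 58 tested DNA replication genes, 55 were lower and 1 higher, and 45 fell at least 2-fold (median -1.31). POLE, the catalytic subunit of the leading-strand polymerase (chr12:133200339-133263962, minus strand), fell from 169 and 203 to 23.2 and 21.7 CPM (log2 fold change -3.05, SE 0.121). DBF4, the activator of the origin-firing kinase, fell from 48.8 and 56.6 to 11.1 and 13.3 CPM. The origin licensing factor CDC6 fell 3.17-fold, the sliding clamp PCNA 3.14-fold and the helicase subunit MCM2 2.36-fold. The exception was POLD4, a small accessory subunit of the lagging-strand polymerase, which rose from 4.30 and 4.41 to 11.1 and 11.8 CPM. Precursor supply moved the same way: of 33 nucleotide and folate genes, 31 were lower and 1 higher. RRM2, the regulatory subunit of ribonucleotide reductase, fell 3.12-fold and TYMS, thymidylate synthase, 2.84-fold. The member that rose was ADSSL1, a muscle isoform of adenylosuccinate synthase (from 2.99 and 3.24 to 14.5 and 15.1 CPM).

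Ahead of DNA synthesis, 22 of 30 tested G1 cyclins, kinases and inhibitors were lower and 1 higher. Cyclin D1 (CCND1) fell from 644 and 667 to 149 and 149.5 CPM, cyclin E2 (CCNE2) 3.47-fold and E2F1 2.07-fold. The inhibitor CDKN2B was the member called higher, at 0.49 log2 units, and was not called without Vem 2 (0.25) or without either vehicle library (0.47 and 0.52). CDKN1A, the inhibitor p21, had almost no reads, with 1 and 1 counts with vehicle and 0 and 0 with Vem.

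Repair divided by pathway. Homologous recombination and Fanconi genes, which act on broken or crosslinked DNA during replication, were mostly lower (35 of 45 lower, 2 higher, median -1.18). BRCA2 fell from 50.6 and 58.6 to 8.97 and 9.76 CPM (log2 fold change -2.54, SE 0.193). Mismatch and excision repair had 12 of 36 lower and 5 higher, near the background shares for falls, with a median of 0.01 (2 higher and 10 lower without Vem 2). Within it MSH6 fell 2.32-fold and NEIL3, a glycosylase of dividing cells, 3.96-fold, while ERCC1 rose 1.41-fold. Of 54 chromatin modifiers and DNA methylation genes, 24 were lower and 13 higher, with 6 higher without vehicle 2, 7 without Vem 1 and 8 without Vem 2. Those that fell included UHRF1 (3.64-fold) and the maintenance methyltransferase DNMT1 (2.41-fold), both of which copy methylation marks at replication, and EZH2 (2.27-fold). The deacetylase HDAC11 rose 1.88-fold and the demethylase KDM4A 1.99-fold.

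Replication-dependent histone genes stood out from the other genes of S phase. Of 27 tested, 9 were higher and 0 lower (median 0.98, and 6 higher and 0 lower with spike-in scaling). HIST1H2AC rose from 1.72 and 1.62 to 30.4 and 31.5 CPM and HIST2H4A, which has a near-identical copy so that its count is uncertain, rose 6.33-fold. Most messages of these genes end in a stem-loop and lack a poly(A) tail, and the libraries were made with a kit for poly(A) RNA, so the counts cover only the polyadenylated forms.

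**Figure D3:**
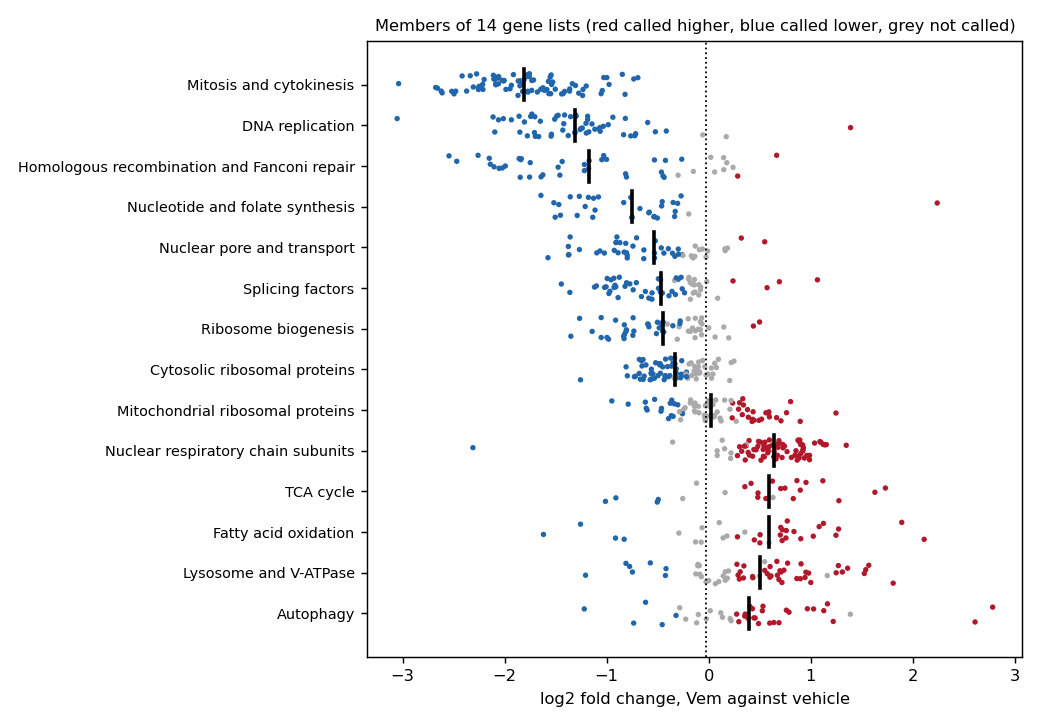
Log2 fold change between Vem and vehicle of each tested member of 14 gene lists, with red points called higher, blue called lower and grey not called, black bars at the list medians and a dotted line at the median of all tested genes (-0.03). The mitosis and DNA replication members lie almost wholly to the left, and the respiratory chain members to the right, where their median is 0.64 (-0.0096 with spike-in scaling).

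Promoters of these lists were searched for known motifs, as a description. RefSeq promoter windows (GRCh38.p14, from 250 bases before to 50 after the start) were found for 10188 of the 16080 tested genes. The E2F core, searched on both strands as TTTCGCGC, TTTGGCGC or TTTCCCGC, was in 38.5% of 65 promoters of DNA replication genes and in 3.96% of the 15012 promoters of all tested genes. The CHR element, searched on both strands as TTTGAA or TTCGAA, was in 63.5% of 85 promoters of mitosis genes and 12.1% over all tested genes. A CCAAT box (those letters, on both strands) was in 63.5% and 34.7%. Stretches around the most downstream match are shown for the named members with the deepest falls that held one, since replication and mitotic genes fell together. They read 5′ to 3′ on the gene's strand, with the motif in capitals, in its reverse complement where it lies on the other strand.
POLE, E2F core, chr12:132687303-132687410, minus strand: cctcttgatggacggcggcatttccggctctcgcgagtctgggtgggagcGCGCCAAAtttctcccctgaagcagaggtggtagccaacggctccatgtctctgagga
CDC6, E2F core, chr17:40287836-40287928, plus strand: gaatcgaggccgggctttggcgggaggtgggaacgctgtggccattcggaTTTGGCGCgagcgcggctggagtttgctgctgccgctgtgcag
PCNA, E2F core, chr20:5126624-5126731, minus strand: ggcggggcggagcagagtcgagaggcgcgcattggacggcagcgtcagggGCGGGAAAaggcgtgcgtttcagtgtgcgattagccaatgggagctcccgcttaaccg
KIF20B, CHR element, chr10:89701570-89701639, plus strand: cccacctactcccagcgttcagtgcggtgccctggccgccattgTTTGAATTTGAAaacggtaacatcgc
HMMR, CHR element, chr5:163460560-163460665, plus strand: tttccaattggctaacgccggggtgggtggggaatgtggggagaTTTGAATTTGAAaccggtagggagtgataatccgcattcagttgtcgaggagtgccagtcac
KIF14, CHR element, chr1:200620702-200620800, minus strand: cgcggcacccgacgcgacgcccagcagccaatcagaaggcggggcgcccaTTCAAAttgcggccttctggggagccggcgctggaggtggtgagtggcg
KIF20B and HMMR each hold 2 abutting copies of TTTGAA. A match gives the letters only and says nothing of whether a factor is bound there.

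RNA processing and protein synthesis were lower by smaller steps. Of 79 tested cytosolic ribosomal protein genes, 50 were lower and 0 higher, with a median of -0.33 (28 lower with spike-in scaling). RPS6 fell from 1064 and 1012 to 639 and 717 CPM and RPLP0 1.49-fold, while RPL3 was not called (-0.10). Processed pseudogenes resemble many of these genes, so their counts are uncertain. Mitochondrial ribosomal proteins divided, with 25 of 75 higher and 16 lower, or 7 lower without vehicle 2 or without Vem 1 (median 0.02). Ribosome biogenesis genes had 31 of 53 lower and 2 higher. NOP58, a core protein of box C/D particles, fell from 199 and 231 to 72.5 and 96.3 CPM, GNL3, nucleostemin, fell 2.403-fold, and nucleolin (NCL) fell 1.77-fold. The 2 higher members, UBTF (0.44) and POLR1A (0.50), serve RNA polymerase I transcription, and UBTF was not called without vehicle 1 (0.22). Hosts of small nucleolar RNAs followed, with 12 of 18 lower and 1 higher. SNHG1 fell from 85.5 and 120.3 to 38.9 and 36.5 CPM.

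Of 59 splicing factors, 39 were lower and 4 higher (median -0.47). HNRNPA1, which represses splice sites, fell from 1282 and 1290 to 487 and 516 CPM (log2 fold change -1.36, SE 0.080). SRSF1 fell 1.58-fold, and ESRP1, the epithelial splicing regulator, rose from 14.8 and 10.8 to 26.5 and 26.8 CPM. Nuclear pore and transport genes had 35 of 49 lower and 2 higher, among them RANBP1 (2.59-fold), RCC1 (2.59-fold) and KPNA2 (2.14-fold), which also serve the spindle. Among 44 translation factors 19 were lower and 4 higher (7 higher without vehicle 2). EEF1E1, a partner of the tRNA synthetase complex, fell from 17.9 and 19.4 to 6.54 and 5.76 CPM and the cap-binding protein EIF4E fell 1.60-fold. Aminoacyl tRNA synthetases had 13 of 36 higher and 6 lower, or 3 lower without vehicle 2 or without Vem 1. Folding and degradation genes stayed nearer the background: 11 of 38 heat shock and chaperonin genes were lower and 6 higher, and 12 of 47 proteasome genes were lower and 5 higher. Both balances moved with the library left out. The heat shock list had 7 higher and 5 lower without Vem 1 and 1 higher and 11 lower without Vem 2. The proteasome list had 1 higher and 13 lower without vehicle 1, 11 higher and 10 lower without vehicle 2 and 1 higher and 12 lower without Vem 2. HSPB1, a small heat shock protein, rose from 34.7 and 37.3 to 85.3 and 98.4 CPM, and PSMB10, an immunoproteasome subunit, rose from 1.57 and 1.38 to 5.70 and 5.53 CPM.

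Mitochondrial metabolism moved the other way relative to the median gene, with few if any members called higher with spike-in scaling. Of 78 nuclear genes for respiratory chain subunits, 69 were higher and 1 lower (median 0.64). With spike-in scaling 0 were higher and 1 lower (median -0.0096). COX5B, of cytochrome oxidase, rose from 149 and 150 to 354 and 408 CPM (log2 fold change 1.35, SE 0.116), and ATP5B, the catalytic subunit of ATP synthase, rose from 1242 and 1273 to 2527 and 2636 CPM. NDUFS1 of complex I rose 1.70-fold and SDHB of complex II 1.56-fold. With spike-in scaling none of these 4 was called, and their log2 fold changes were 0.70, 0.39, 0.12 and -0.01. These rises were small and even, and only a few members passed 2-fold (7 of 78). Of 13 mitochondrially encoded protein genes, 12 were higher and 0 lower (median 0.82), and with spike-in scaling 0 were called in either direction (median 0.17). MT-CO1 rose from 13150 and 14850 to 33860 and 29230 CPM, whereas MT-ND6, the member on the other strand, was not called (-0.38, and -0.71 and called without Vem 1). The median was 0.58 without vehicle 1 and 1.11 without vehicle 2, with 11 and 12 members called higher.

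In the TCA cycle 16 of 24 genes were higher and 4 lower (0 higher and 4 lower with spike-in scaling, median -0.059). OGDH, of the oxoglutarate dehydrogenase complex, rose from 119 and 127 to 372 and 390.3 CPM (log2 fold change 1.63, SE 0.089), and citrate synthase (CS) rose 1.82-fold. With spike-in scaling neither was called (0.98 and 0.21 log2 units). The falls included ME1, the cytosolic malic enzyme (2.02-fold). Fatty acid oxidation had 20 of 33 higher and 4 lower (2 higher and 4 lower with spike-in scaling, median -0.063). ACADS, the short-chain acyl-CoA dehydrogenase, rose from 24.9 and 24.7 to 103 and 111 CPM, and CPT1A, the carnitine transferase at the entry step, rose 2.12-fold. The acyl-CoA synthetases ACSL5, ACSL3 and ACSL1 fell 3.07-fold, 2.39-fold and 1.88-fold. The list of PGC1 and mitochondrial biogenesis factors had no common direction (5 higher and 7 lower of 24). PPARGC1A rose from 481 and 356 to 664 and 638 CPM and ESRRA 2.49-fold. PPARGC1B fell from 22.3 and 26.4 to 7.65 and 6.92 CPM and the mitochondrial DNA factor TFAM 1.89-fold. With spike-in scaling PPARGC1A (-0.011) and ESRRA (0.66) were not called, whereas PPARGC1B and TFAM were called lower.

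Glycolysis divided, and its counts moved with the vehicle library left out. Of 34 genes, 10 were higher and 14 lower (median -0.10). Without vehicle 1 the counts were 13 higher and 9 lower (median 0.08), and without vehicle 2 they were 9 and 16 (median -0.28). HK2, the first kinase of glycolysis, fell from 349 and 120.2 to 31.5 and 26.8 CPM. LDHA, lactate dehydrogenase, fell from 1794 and 1210 to 533 and 568 CPM. PDK1, which inhibits pyruvate dehydrogenase, fell from 101 and 36.7 to 9.60 and 7.92 CPM, while its relative PDK2 rose 2.48-fold. Vehicle 1 exceeded vehicle 2 by 1.54 log2 units in HK2 and 1.46 in PDK1, and the Vem libraries lay under both. Without vehicle 1 the log2 fold changes went from -3.003 to -2.04 in HK2 and from -2.97 to -2.07 in PDK1.

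The same held across the hypoxia targets. Of 31 tested, 20 were lower and 4 higher (median -1.04). Without vehicle 1, 14 were lower and 6 higher (median -0.30), and without vehicle 2, 23 were lower and 2 higher (median -1.56). STC1, a secreted glycoprotein, had 31.9 and 3.08 CPM with vehicle and 0.417 and 0.154 CPM with Vem, and its log2 fold change of -5.85 was -3.37 without vehicle 1 and -6.72 without vehicle 2. BNIP3, a mitophagy receptor, went from 204 and 42.9 to 35.9 and 33.9 CPM, so that vehicle 2 was close to the Vem libraries, and it was not called without vehicle 1 (-0.30, against -2.53 without vehicle 2). BHLHE40, a repressor of the clock, fell from 276 and 67.6 to 29.8 and 21.4 CPM (log2 fold change -2.74, -1.40 without vehicle 1 and -3.41 without vehicle 2). VEGFA, the main growth factor of blood vessels, was not called and overlapped (from 96.5 and 36.2 to 49.1 and 31.1 CPM). Its log2 fold change was -0.72, and it was 0.15 without vehicle 1 and -1.25, and called, without vehicle 2. Against the list, EPAS1, which encodes HIF-2 alpha, rose from 99.5 and 103 to 279.9 and 285 CPM, and NDRG1 rose from 18.2 and 9.30 to 24.97 and 24.4 CPM, with no call for NDRG1 without vehicle 2 (0.46). CA9 was not tested: its counts were 20 and 2 with vehicle and 0 and 0 with Vem.

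**Figure D4:**
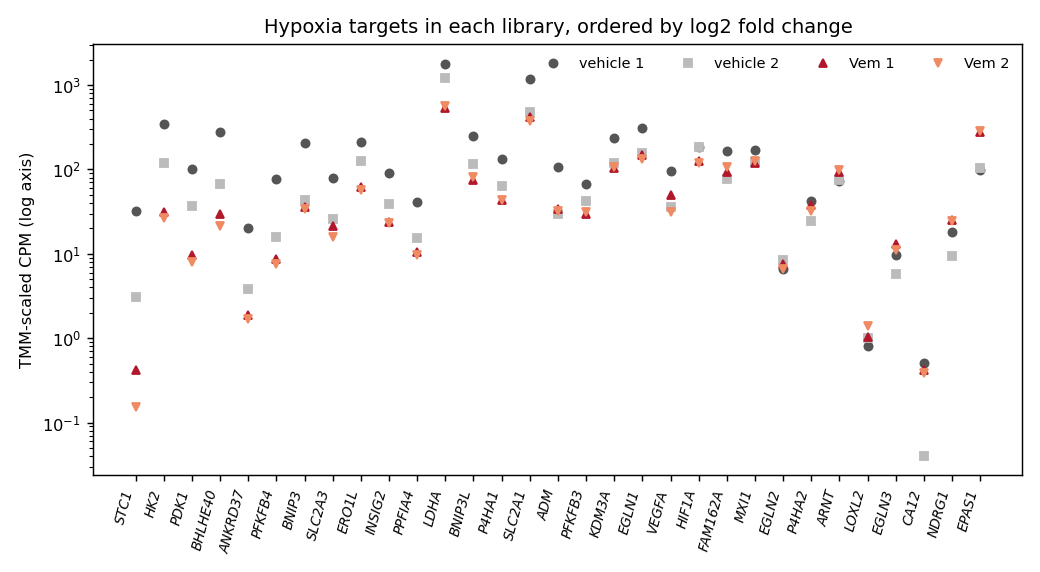
TMM-scaled CPM on a log axis of the tested hypoxia targets in each of the 4 libraries, ordered from the deepest fall to the largest rise. Vehicle 1 (dark circles) lies above vehicle 2 (light squares) in most genes on the left, including STC1, HK2 and PDK1, with the Vem libraries under both.

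Lipid lists held changes in both directions, with rises more frequent than falls in fatty acid and glycerolipid synthesis. In cholesterol synthesis and transport, 11 of 34 were higher and 10 lower, but 7 higher and 10 lower without vehicle 1, 9 higher and 6 lower without Vem 1 and 7 higher and 6 lower without Vem 2. APOE, the apolipoprotein of cholesterol export, rose from 108 and 105.3 to 590.2 and 628 CPM. TM7SF2, a sterol reductase, rose 5.42-fold, and INSIG1, which holds back sterol synthesis, fell 2.51-fold, while the synthase HMGCS1 was not called (0.23). Fatty acid and glycerolipid synthesis had 16 of 34 higher and 6 lower (0 higher and 4 lower with spike-in scaling, median -0.44). In it ACSS2, acetyl-CoA synthetase, rose 2.71-fold and ELOVL2, an elongase, fell 2.97-fold. Among 35 sphingolipid and ganglioside genes, 12 were higher and 10 lower. ST8SIA1, which makes the melanoma ganglioside GD3, fell from 16.5 and 17.4 to 2.92 and 2.15 CPM, and CERS4, a ceramide synthase, rose 3.54-fold. In eicosanoid metabolism, with 5 of 15 higher and 6 lower, PTGES2, a prostaglandin E synthase, rose from 70.3 and 75.0 to 162 and 168 CPM, EPHX1, an epoxide hydrolase, rose 3.96-fold, and PTGDS rose as given above. PTGS2, cyclooxygenase-2, had few counts, 15 and 9 counts with vehicle and 0 and 0 with Vem.

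Lysosome and autophagy genes were mostly higher relative to the median gene, with few called higher with spike-in scaling. Of 61 lysosome and V-ATPase genes, 36 were higher and 7 lower (median 0.50), with 1 higher and 5 lower with spike-in scaling (median -0.16). GAA, the acid glucosidase, rose from 30.7 and 29.2 to 98.4 and 112 CPM (log2 fold change 1.81, SE 0.124), and CTSD, cathepsin D, rose from 273 and 247 to 737 and 773 CPM (log2 fold change 1.54, SE 0.099). ATP6AP1, an accessory subunit of the proton pump, rose 2.97-fold. With spike-in scaling GAA was called (1.16), and CTSD (0.89) and ATP6AP1 (0.92) were not. The ion channels MCOLN2 and MCOLN3 fell 2.31-fold and 1.71-fold, and LAMP1 was not called (0.16). Of 40 autophagy genes, 24 were higher and 5 lower (2 higher and 3 lower with spike-in scaling, median -0.26). TP53INP2, which carries LC3 out of the nucleus (chr20:33292143-33301243, plus strand), rose from 86.1 and 75.6 to 558 and 554 CPM (log2 fold change 2.78, SE 0.110). ATG2A, a lipid transfer protein of the growing autophagosome (chr11:64662018-64684681, minus strand), rose from 34.3 and 38.6 to 216 and 229 CPM (log2 fold change 2.61, SE 0.143). SQSTM1, the receptor p62, rose 1.96-fold. RB1CC1, a scaffold of the starting kinase complex, fell from 201 and 152 to 70.9 and 80.6 CPM. TFEB itself rose 1.52-fold relative to the median gene, but was not called with spike-in scaling (-0.049 log2 units).

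Pigment genes were also mostly higher relative to the median gene: 21 of 35 were higher and 4 lower, with 1 higher and 4 lower with spike-in scaling (median -0.27). DCT, dopachrome tautomerase, rose from 2687 and 2508 to 7100 and 7655 CPM, OCA2, a melanosomal anion transport protein, rose 3.93-fold and RAB32, which delivers enzymes to melanosomes, 2.85-fold. Among 27 melanocyte lineage regulators 13 were higher and 5 lower (0 higher and 4 lower with spike-in scaling). IRF4, a pigment factor, rose from 32.0 and 25.8 to 86.2 and 85.8 CPM and TFAP2A 2.56-fold. With spike-in scaling OCA2 was called (1.32), and DCT (0.85), IRF4 (0.92) and TFAP2A (0.71) were not. MITF was not called (0.21). POU3F2, the neural factor BRN2, fell from 25.4 and 25.3 to 4.03 and 4.07 CPM (log2 fold change -2.64, SE 0.144). Neural crest and Schwann cell genes divided: 12 of 27 were lower and 5 higher. FABP7, a brain fatty acid binding protein, fell from 35.3 and 37.6 to 2.50 and 3.77 CPM and NES, the progenitor filament nestin, fell 5.68-fold. The myelin gene MBP rose 3.79-fold.

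The E-box CACGTG, which reads the same on both strands, was in 26.8% of 56 lysosome promoters, in 34.6% of 52 for ribosome biogenesis and in 9.12% over all tested genes. The M-box core CATGTG, searched on both strands, was in 37.5% of 48 pigment promoters and 7.77% over all tested genes. Lysosome and ribosome biogenesis genes moved in opposite directions with Vem relative to the median gene, and a stretch of each is shown beside 2 pigment genes, with the motif in capitals.
GAA, E-box, chr17:80101500-80101605, plus strand: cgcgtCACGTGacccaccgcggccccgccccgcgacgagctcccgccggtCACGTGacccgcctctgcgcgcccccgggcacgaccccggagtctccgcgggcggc
CTSD, E-box, chr11:1763919-1764024, minus strand: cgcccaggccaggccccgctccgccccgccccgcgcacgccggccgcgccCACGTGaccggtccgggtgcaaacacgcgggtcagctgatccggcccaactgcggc
GNL3, E-box, chr3:52685988-52686081, plus strand: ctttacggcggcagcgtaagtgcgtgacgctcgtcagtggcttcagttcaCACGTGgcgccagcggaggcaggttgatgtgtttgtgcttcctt
OCA2, M-box core, chr15:28099413-28099518, minus strand: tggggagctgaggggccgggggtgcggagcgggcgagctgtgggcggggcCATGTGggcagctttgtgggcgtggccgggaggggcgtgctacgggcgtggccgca
DCT, M-box core, chr13:94479761-94479866, minus strand: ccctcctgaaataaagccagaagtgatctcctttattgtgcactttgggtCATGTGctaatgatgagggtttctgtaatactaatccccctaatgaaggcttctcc

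Stress and death programmes had no common direction. In the BCL2 family 11 of 20 were higher and 7 lower (0 higher and 6 lower with spike-in scaling). The death activators BCL2L11, which encodes BIM, and BMF rose 1.66-fold and 1.55-fold, BAK1 and BOK, which open the outer membrane, rose 2.17-fold and 2.21-fold, and the survival gene BCL2A1 rose 1.41-fold. PMAIP1, which encodes NOXA, fell from 7.69 and 6.43 to 2.23 and 1.84 CPM. Caspases, death receptors and their inhibitors had 7 of 26 higher and 6 lower. The caspase inhibitor BIRC7 fell from 127 and 72.9 to 40.4 and 31.5 CPM and the apoptosome scaffold APAF1 2.15-fold.

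In the ATF4 and amino acid response 11 of 34 were higher and 9 lower, a balance that turned with the library left out (6 higher and 9 lower without Vem 1, and 11 higher and 4 lower without Vem 2). The 2 chains of the large amino acid transporter, SLC7A5 and SLC3A2, rose 2.52-fold and 2.47-fold, and PHGDH, the first enzyme of serine synthesis, fell from 462 and 459 to 283 and 248 CPM. SLC1A5, the glutamine transporter, fell from 144 and 166 to 57.4 and 44.6 CPM. The unfolded protein response had 5 higher and 5 lower of 26 (9 and 6 without vehicle 2, and 3 and 5 without Vem 2). Of 31 NRF2 antioxidant genes 11 were higher and 4 lower. FTH1, the heavy chain of ferritin, rose from 2929 and 2845 to 7592 and 8199 CPM and GSTP1, a glutathione transferase, rose 2.32-fold, while NFE2L2, which encodes NRF2, fell 1.76-fold. Metal handling had 10 of 23 higher and 7 lower (4 lower without any 1 of vehicle 1, Vem 1 and Vem 2), with the zinc importer SLC39A10 down 3.002-fold and NCOA4, the receptor that takes ferritin to the lysosome, up 2.28-fold. In sirtuins and NAD synthesis 9 of 19 were higher and 3 lower. NAMPT, the rate-limiting salvage enzyme, fell from 155 and 110.4 to 54.8 and 62.9 CPM, and NNT, the mitochondrial transhydrogenase, rose 2.46-fold. Polyamine genes had 5 higher (3 without Vem 2) and 7 lower of 13, and ODC1, their first enzyme, rose 1.32-fold.

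Receptor and growth factor genes changed in both directions, against background shares of 25.4% higher and 27.0% lower. Of 27 receptor tyrosine kinases 6 were higher (22.2%) and 10 lower (37%). EPHB3 and EPHA2, ephrin receptors, fell 7.51-fold and 7.12-fold, and FGFR4 fell from 9.06 and 9.27 to 3.41 and 3.15 CPM. ERBB2 rose from 9.87 and 7.65 to 17.9 and 14.99 CPM and MET, the receptor of hepatocyte growth factor, 1.65-fold. Growth factors had 4 of 22 higher (18.2%) and 6 lower (27.3%), near the background. IGF1 and GAS6 rose, GAS6 from 0.607 and 0.526 to 5.63 and 5.30 CPM and IGF1 from 2.78 and 2.43 to 9.60 and 14.4 CPM, and KITLG, stem cell factor, fell 1.89-fold. The PI3K, AKT and FOXO list had 14 of 33 higher and 11 lower (median 0.10). It had 9 higher and 7 lower without Vem 1, 11 higher and 5 lower without Vem 2 and 13 higher and 7 lower without vehicle 1, and its median was -0.054 without vehicle 2. PIK3IP1, an inhibitor of PI3K at the membrane, rose from 2.23 and 2.02 to 13.4 and 12.6 CPM. AXL and PDGFRB had at most 3 counts in each of the 4 libraries and were not tested.

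In the TGF-beta and BMP pathway 16 of 38 were lower and 7 higher. ID4, a target of BMP signalling, fell from 9.21 and 10.5 to 3.55 and 3.54 CPM and the inhibitory SMAD7 fell 2.33-fold, whereas the ligand TGFB2 rose from 17.8 and 9.59 to 71.1 and 83.5 CPM and the receptor TGFBR2 2.15-fold. TGFBR1 fell 2.51-fold. Of 36 Wnt genes 18 were lower and 5 higher (3 higher without Vem 1). DACT1, an antagonist of Dishevelled, fell from 8.05 and 7.24 to 1.46 and 1.08 CPM, and the secreted inhibitor DKK2 rose 2.17-fold. The pathway's common target AXIN2 was not called (0.14). Notch genes had 9 of 23 lower and 2 higher. HES1 (chr3:193853937-193856521, plus strand), the main repressor downstream of Notch, fell from 42.1 and 26.6 to 1.95 and 1.15 CPM (log2 fold change -4.44, SE 0.263) and HEY1 fell 4.59-fold. Among 31 genes of the YAP and TEAD pathway 18 were lower and 5 higher, against 12 and 3 without vehicle 1 and 11 and 4 without Vem 1. F3, tissue factor, fell from 3.54 and 3.76 to 0.765 and 1.31 CPM. In the cAMP pathway, which carries the signal of melanocortin, 12 of 36 were lower and 11 higher. ADCY3, an adenylyl cyclase, fell from 54.5 and 66.7 to 14.3 and 15.2 CPM and PRKAR2B, a regulatory subunit of protein kinase A, 5.604-fold, while GNAS, the stimulatory G protein, rose 1.60-fold.

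Matrix and adhesion lists held changes in both directions. Collagens, laminins and matrix genes had 14 of 46 higher and 17 lower. BCAN, brevican of the neural matrix (chr1:156611182-156629324, plus strand), rose from 212 and 186 to 1213 and 1302 CPM (log2 fold change 2.66, SE 0.107), LAMA5 rose 4.10-fold, and FN1, fibronectin, fell 1.74-fold. Of 17 integrins 4 were higher and 7 lower. The laminin receptor subunits divided, with ITGA6 falling from 116 and 127 to 36.1 and 34.4 CPM and ITGA3 rising from 2.18 and 2.35 to 5.15 and 5.23 CPM, and the collagen receptor subunits ITGA1 and ITGA2 fell 5.49-fold and 3.40-fold. Matrix proteases and inhibitors had 8 higher and 8 lower of 29. PLAT, a plasminogen activator, fell from 80.8 and 87.8 to 33.5 and 31.2 CPM, and TIMP3, an inhibitor of matrix proteases, fell 4.51-fold. MMP2 rose 1.59-fold. Among 26 cadherins and EMT factors, 6 were higher and 9 lower. SNAI1 fell from 6.17 and 5.83 to 0.556 and 0.922 CPM, whereas the related repressor SNAI2 rose 1.66-fold with ZEB2 (1.79-fold). Semaphorins, ephrins and guidance genes had 14 in each direction of 47, with EFNB2 down 3.16-fold and SEMA3C up 2.18-fold.

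Immune genes divided by class. Of 20 genes of MHC class I and peptide loading, 11 were higher (7 without Vem 2) and 1 lower (median 0.41), with 0 higher and 1 lower with spike-in scaling. CALR, a chaperone of the loading complex, rose from 873 and 996 to 1343 and 1468 CPM, while HLA-B was not called (0.13). Reads of HLA genes can be split between near-identical copies, so the HLA-B level is uncertain. The one member that fell was ERAP2, a peptide trimming protease (from 3.04 and 3.32 to 1.32 and 1.31 CPM). Of 9 MHC class II genes 4 were higher (1 without Vem 2) and 1 lower. Interferon-stimulated genes had 11 of 46 higher and 13 lower, with STAT2 up 2.18-fold and GBP2 down 2.07-fold. These counts were 7 higher and 11 lower without vehicle 1, 10 higher and 6 lower without Vem 1 and 5 higher and 12 lower without Vem 2. Of 38 NF-kB, cytokine and chemokine genes, 13 were lower and 5 higher (median -0.60). IL6R, the receptor of interleukin-6, fell from 162 and 178 to 33.2 and 32.0 CPM, TNFAIP3, a feedback inhibitor of NF-kB, fell from 366 and 282 to 90.8 and 80.6 CPM, and RELB, a subunit of the factor, rose from 2.58 and 2.71 to 8.83 and 7.45 CPM. Checkpoint and NK cell ligands had 7 of 24 lower and 3 higher (3 lower and 4 higher without Vem 1 or without Vem 2). MICB, a ligand of NKG2D, fell from 3.39 and 3.36 to 0.974 and 0.845 CPM, and CD58, the ligand of CD2, fell 2.32-fold.

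Of 19 genes of the aryl hydrocarbon receptor (AhR) pathway, the receptor of dioxins, 8 were lower (5 without Vem 1) and 7 higher. AHR fell from 55.0 and 58.3 to 19.5 and 18.6 CPM (log2 fold change -1.57, SE 0.118), its target CYP1A1 fell from 23.5 and 23.1 to 13.6 and 12.4 CPM, and AHRR, a repressor of the receptor and itself a target, rose from 24.6 and 21.1 to 72.7 and 62.9 CPM. The circadian list had 10 of 23 lower and 6 higher (3 higher without Vem 1), with PER2 down 2.88-fold and RORB up 1.82-fold.

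Gene families taken by symbol were read in the same way. Of 239 solute carriers, 80 were higher and 60 lower, and of 36 potassium channel genes 13 were higher and 7 lower, including KCNN3 (from 3.69 and 2.23 to 21.8 and 18.8 CPM). In 31 ABC transporters, with 11 higher and 7 lower, ABCB5 rose from 13.3 and 8.70 to 51.7 and 48.5 CPM and ABCB1, the multidrug pump, fell from 17.4 and 17.7 to 6.54 and 5.61 CPM. Zinc finger genes of the ZNF series had 138 of 465 higher and 83 lower, and many of them are close paralogs whose reads can be split. Kinesins had 19 of 32 lower and 7 higher: those that fell most serve the spindle, and KIF1A, a carrier of axonal vesicles, rose from 11.6 and 8.70 to 37.1 and 40.2 CPM. RAB GTPases had 17 of 53 higher and 11 lower, and ubiquitin E2 conjugases 6 of 40 higher and 13 lower. TMEM genes had 59 of 174 higher and 37 lower, and HOX genes 5 of 28 higher and 3 lower. Long intergenic RNAs showed 28 higher and 27 lower of 138, and antisense RNAs 67 higher and 32 lower of 246. TFAP2A-AS1 rose 4.49-fold beside its neighbour TFAP2A. Leaving out Vem 1 left 85 zinc finger genes and 44 antisense RNAs higher, and leaving out Vem 2 left 39 solute carriers and 17 intergenic RNAs lower and 2 HOX genes higher. Potassium channels had 3 lower without vehicle 2 and 4 without Vem 1 or without Vem 2, and RAB GTPases had 7 lower without Vem 1 or without Vem 2. With spike-in scaling 5 solute carriers, 1 zinc finger gene, 1 TMEM gene and 2 antisense RNAs were called higher.

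The same drug was also compared with its control in cells that all received RSV, in libraries shared with neither group above. RSV+Vem against RSV called 3920 of 16080 genes (24.4%), 1807 higher and 2113 lower, by the same test (1975 without RSV+Vem 1, and 483 with spike-in scaling). Gene counts summed to 15375956 and 18168534 with RSV and to 17631920 and 8378655 with RSV+Vem, so RSV+Vem 2 was the shallowest. RNA integrity numbers were 9.2 and 9.5 with RSV and 8.7 and 8.6 with RSV+Vem. The part of depth and RNA integrity in these counts was not tested. Of the 4082 genes higher with Vem alone, 1343 (32.9%) were also higher there and 74 were lower. Of the 4341 lower genes, 1526 (35.2%) were also lower and 26 were higher. These are 74.3% of the 1807 and 72.2% of the 2113. Across the 16080 genes the 2 sets of log2 fold changes had Pearson's r of 0.62 and a Spearman coefficient of 0.59, as a description over genes, which are not independent replicates.

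The interaction of RSV and Vem, which tests whether the change under Vem differed between the 2 settings, was called for 3652 genes (22.7%), 1933 of them positive and 1719 negative. It was called for 2364 without Vem 1, 2413 without Vem 2 and 2416 without RSV+Vem 2, and for 6 with spike-in scaling, so the differences given next hold on the TMM scale. For 84 of the 85 mitosis genes and 49 of the 58 DNA replication genes it was positive, so the fall was smaller with RSV: the list medians were -1.81 without RSV and -0.37 with it for mitosis, and -1.31 and -0.49 for replication. CENPE changed by -3.04 without RSV and by -0.83 with it. In the nuclear respiratory chain 43 of 78 members had a negative interaction, with medians of 0.64 and 0.28. The lysosome list, with a negative interaction in 33 of 61 and a positive one in 1, had medians of 0.50 and -0.01. ERK feedback inhibitors were lower in both settings, with medians of -3.17 and -1.80. Their fall was also smaller with RSV, with a positive interaction in 9 of 13 and a negative one in 0. ETV4 changed by -6.79 and -5.35, an interaction of 1.43. Of the lists named in this paragraph, the histone list alone had a larger median with RSV, with a positive interaction in 2 of 27 members and a negative one in 1 (0.98 and 1.87). The interaction uses the vehicle and RSV libraries too, including vehicle 1, so the level with RSV alone enters it. The spike-in fit also takes in the differing control shares of the RSV+Vem libraries. A missing call in that fit is therefore not shown to be no difference. The lists were chosen with the change under Vem known, so these counts are given as a description.

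**Figure D5:**
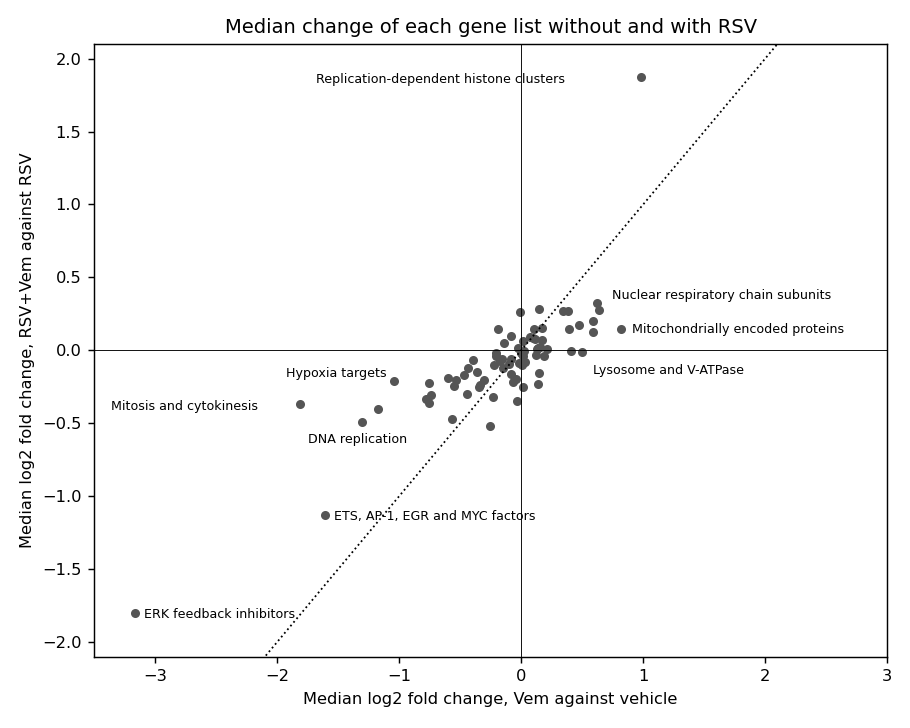
Median log2 fold change of each gene list or family with at least 13 tested members, for Vem against vehicle (horizontal) and RSV+Vem against RSV (vertical), with a dotted line of equal change. The mitosis and DNA replication lists lie well to the left of -1 but above -0.5 on the vertical axis, whereas the ERK feedback list is low on both.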

How the data were processed

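501Mel libraries were prepared with the TruSeq Stranded mRNA kit and sequenced as paired reads on a NextSeq 500. Per the labels and the study's methods, the authors aligned reads with STAR 2.4.0a on the hg19 build, and featureCounts (Subread 1.5.0-p3) then gave a count for each gene symbol. The annotation release is not given in the sources used here. The deposited values are raw counts, not normalized, for 12 libraries, and all columns were mapped to samples.

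From these counts, TMM factors, filterByExpr and the quasi-likelihood test of edgeR 4.0.16 (R 4.3.3) were applied to all 12 libraries with 1 term per group, without a replicate block. P-values were adjusted by the Benjamini-Hochberg method over 16080 genes, with 0.05 as the threshold for a call. ERCC and other control sequences, 96 in all, were left out of library totals and tests. The common biological coefficient of variation was 0.0915. Counts were simulated from each gene's mean over all 12 libraries, with a spread set by expression level, and 15707 genes passed the filter. Of 200 genes with a mean of at least 50 counts and a set change of 1 log2 unit, 94.0% were called. Among the unchanged genes 9 were called. This setting covers neither low counts nor a comparison with as many changes as that between Vem and vehicle. A group was set to 3 counts per library where its libraries were all at or under 3 counts, to give a bound.

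The comparison, the 64 gene lists and 13 families by symbol were chosen with earlier results of these data known, and counts over a list are read beside the share over all genes, with no set test. Genes named are those marked in the lists, the 3 largest rises and 3 largest falls among called members of each list, and the 20 largest in each direction over all genes, where groups did not overlap and the higher group had a mean of at least 50 counts.

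Labels number the libraries 1 and 2 in each group. Deviations of same-numbered libraries correlated at 0.09 between vehicle and Vem and at 0.15 between RSV and RSV+Vem, with 2 numbers only and no stated shared source, so the numbers were not taken to pair libraries. Alternatives were DESeq2 1.42.0, RLE factors (DESeq2's size factor method), scaling by ERCC controls, no filter, a minimum of 10 counts in all libraries, the replicate number as a block, a fit on the libraries compared, and leaving out each library. Some alternatives were fitted with 1 library in a group, which was then assumed to vary like the other groups. Promoters are from RefSeq (GRCh38.p14), which is not the build of the counts, and were matched by symbol; gene positions are from GENCODE on GRCh37. Figures were drawn with matplotlib 3.10.9. Some genes and lists are not reported here.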

Additional observations from a re-analysis of the deposited data

Results flagged for a closer look

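Of the 215 tested genes named in the text, 154 had a called interaction of RSV and Vem by the quasi-likelihood test of edgeR (Benjamini-Hochberg adjusted), 88 positive and 66 negative. Many of them were chosen for large changes between Vem and vehicle, which is part of the interaction, so this share is not to be read against that of all genes. With spike-in scaling the interaction was called for 6 genes in all, with the limit on missing calls given above, so these values are for the TMM scale. The 24 below differed by at least 4-fold between the 2 settings, that is, the change with RSV minus the change without it was at least 2 log2 units in size. They are given as values on the log2 scale. Each depends on the levels in all 4 groups, so a smaller change can also come from a different level with RSV alone.

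Rises that were smaller with RSV were found for KCNJ13 (-2.78), ATG2A (-2.33), MYH7B (-2.24), MVP (-2.17), SERPINI1 (-2.09), CYP19A1 (-2.07), SLC7A4 (-2.04) and IL17D (-2.01). ATG2A changed by 2.61 without RSV and by 0.29 with it, and MVP by 3.22 and 1.05. SERPINI1 had a mean of 10.8 CPM with vehicle and 44.6 with RSV, then 89.95 with Vem and 87.9 with RSV+Vem. By contrast, MYH7B had 2.145 and 1.92 CPM, then 27.5 and 5.29 CPM, in the same order.

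Falls that were smaller with RSV included ERK output and growth genes: SPRY4 (3.39), DUSP6 (2.66), SPRY2 (2.28) and MYC (2.27). Signalling and lineage genes were HES1 (3.40), SHISA2 (2.69), POU3F2 (2.31), EPHB3 (2.30), FABP7 (2.099) and SNAI1 (2.01). Among mitotic genes these were HMMR (2.58) and CENPE (2.21), and among hypoxia targets PDK1 (2.43), where vehicle 1 stood above vehicle 2. BNIP3 (2.15), another hypoxia target, was lower with Vem without RSV but did not fall with RSV. Its fall without RSV rests mainly on vehicle 1, as given above. C1QTNF3 (2.19) and ICOS (2.42) completed the set, and ICOS rests on at most 3 counts in each Vem library. HES1 changed by -4.44 without RSV and by -1.04 with it.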

How the results depend on the processing

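The number of genes called between Vem and vehicle (8423) was 7671 with DESeq2, 8426 with RLE factors, 8452 with no filter, 7597 with at least 10 counts in every library and 8037 with the libraries compared alone, and lay between 6716 and 7604 without 1 library. It was 3770 with spike-in scaling and 2958 when a log2 fold change of at least 1 was also required. For RSV+Vem against RSV (3920) the counts were 483 and 903 under these 2 settings and 1975 to 3213 without 1 library, and for the interaction (3652) they were 6 and 1142, and 2364 to 3774. With the replicate number as a block, the counts were 8512, 4011 and 3767.

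Of the named genes, VEGFA turned from -0.72 to 0.15 without vehicle 1 (range -1.25 to 0.15 over the libraries left out) and was called with the block at -0.66, which changed no other call among the named genes. CDKN2B was not called with no filter or with the libraries compared alone. A list median relative to all genes was taken as reversed where it changed sign and had exceeded its spread between fits without 1 library. Medians within that spread also changed sign in some lists, among them glycolysis and PI3K as given above, and are not listed here. Those reversed were these: mismatch and excision repair was -0.0127 with no filter and -0.0112 to 0.0541 without 1 library, eicosanoid metabolism (-0.27) 0.0205 with the libraries compared alone, collagens and matrix (-0.23) 0.085 with at least 10 counts and -0.315 to 0.0477 without 1 library, cadherins (-0.19) 0.0898 with at least 10 counts, solute carriers -0.00671 with no filter, Notch -0.149 to 0.0414 and sphingolipids -0.000149 to 0.0994 without 1 library. The cause was not tested. With the block 0 list medians were reversed in this sense. Spike-in scaling moves all genes alike, so medians relative to all genes do not show it. On their own scale, 33 of the 35 list medians above 0 lay below 0 with spike-in scaling. ICOS, SPRR2D, EGR3 and MYEOV, at or under 3 counts in both Vem libraries, give bounds only.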
